A study of Mus musculus with 16 samples.

Results

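The immediate early and stress-responsive genes Fos, Fosb, Jun, Junb, Jund, Egr1, Atf3, Ier2, Nr4a1 and Dusp1 were examined in the liver and kidney of mice after long-term chronic jet lag (CJL). These 10 genes were taken by symbol from the 32989 genes of the deposited tables, and each symbol occurred in 1 row. Male C57BL/6J mice were kept for 85 weeks either under a fixed light-dark cycle with light from 8 to 20 h (LD) or under an 8 h advance of the light phase every 4 days (ADV), and all were 97 weeks old. The 4 LD-conditioned mice are named L63, L65, L86 and L104 and the 4 ADV-conditioned mice A75, A91, A94 and A115, and the liver and kidney of every mouse gave 1 poly(A)-selected RNA-seq library each, which makes 16. The labels name no transgene, deletion or drug for either group. Both organs were collected early in the dark phase, after blood had been drawn by cardiac puncture under isoflurane, and the part of this handling in the levels was not tested. The value of a gene is its FPKM, the number of sequenced fragments per kilobase of its exons per 1000000 fragments of the library, which allows levels to be compared between genes.

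Immediate early genes are transcribed soon after a cell receives a stimulus, without new protein synthesis, and their transcripts are short-lived. FOS, FOSB, JUN, JUNB and JUND pair through leucine zippers into the AP-1 transcription factor, to which ATF3 can also bind, and growth factors, cytokines and stress reach these genes through the MAP kinases, SRF and CREB. EGR1 is a zinc finger transcription factor, NR4A1 is an orphan nuclear receptor, IER2 is a nuclear protein of less defined function, and DUSP1 is a phosphatase that inactivates MAP kinases and not a transcription factor. In liver and kidney these genes are known for their response to injury, regeneration, feeding and hormones such as glucocorticoids.

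The 250 bases before the annotated start of 5 of the 10 genes are printed to show the promoters of genes whose levels moved together between mice, as described further on, and that of Dusp1, which holds a complete cAMP response element. The sequences come from the RefSeq table for GRCm38.p6, the build of the deposited tables (mm10), in which 8 of the 10 genes were found. Capitals mark the letters of 8 motifs searched on both strands: the cAMP response element TGACGTCA, its half-site TGACG, the AP-1 element TGANTCA, the AP-1-like element TGACATCA, the TATA box TATAAA, the CCAAT box CCAAT, the GC box GGGCGG and the serum response element (CArG box). A half-site inside a complete cAMP response element was counted in both.
Fos, chr12:85473640-85473889, plus strand: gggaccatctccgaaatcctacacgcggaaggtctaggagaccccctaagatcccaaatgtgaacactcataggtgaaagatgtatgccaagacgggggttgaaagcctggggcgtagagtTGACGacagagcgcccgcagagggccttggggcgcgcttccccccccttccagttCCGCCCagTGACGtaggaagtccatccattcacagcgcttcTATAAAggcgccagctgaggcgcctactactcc
Jun, chr4:95052223-95052472, minus strand: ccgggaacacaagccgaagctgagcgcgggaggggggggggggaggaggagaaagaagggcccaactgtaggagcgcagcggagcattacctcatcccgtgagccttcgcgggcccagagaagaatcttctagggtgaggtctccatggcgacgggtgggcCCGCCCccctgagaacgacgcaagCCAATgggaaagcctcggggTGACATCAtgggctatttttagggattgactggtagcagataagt
Junb, chr8:84978749-84978998, minus strand: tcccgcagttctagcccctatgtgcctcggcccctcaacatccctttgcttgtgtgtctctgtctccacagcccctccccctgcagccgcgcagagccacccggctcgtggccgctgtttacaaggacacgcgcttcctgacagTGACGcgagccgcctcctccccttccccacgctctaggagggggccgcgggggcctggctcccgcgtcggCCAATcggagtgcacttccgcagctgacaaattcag
Jund, chr8:70697489-70697738, plus strand: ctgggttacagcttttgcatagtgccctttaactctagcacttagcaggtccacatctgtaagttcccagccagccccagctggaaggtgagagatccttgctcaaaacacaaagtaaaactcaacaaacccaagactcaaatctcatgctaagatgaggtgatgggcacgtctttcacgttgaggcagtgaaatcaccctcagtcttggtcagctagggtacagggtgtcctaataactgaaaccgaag
Dusp1, chr17:26508473-26508722, minus strand: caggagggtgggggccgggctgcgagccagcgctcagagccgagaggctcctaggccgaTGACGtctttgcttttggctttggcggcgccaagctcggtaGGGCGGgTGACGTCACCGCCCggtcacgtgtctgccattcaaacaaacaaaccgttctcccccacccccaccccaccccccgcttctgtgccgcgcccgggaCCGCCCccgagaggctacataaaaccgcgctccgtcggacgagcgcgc

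A TATA box stood 33 to 28 bases before the start of Fos, between the 2 cAMP response half-sites upstream of it and the start. Jun held the AP-1-like element 45 to 38 bases before its start and a CCAAT box further upstream, and Junb held a CCAAT box and 1 half-site. The complete cAMP response element of Dusp1 lay 143 to 136 bases before the start, next to a GC box on either side. None of the 8 motifs occurred in the window of Jund. Of the 8 genes searched, 6 held a half-site and 6 a GC box, which occurred in 17.8% and 32.7% of the 32851 promoters of the table. The AP-1 element and the CArG box were held by 0 of the 8 genes and by 6.75% and 1.47% of all promoters. The complete element, the AP-1-like element and the TATA box were held by 1 gene each, and by 1.55%, 2.93% and 12.4% of all promoters. The CCAAT box was held by 2 genes and by 33.8% of all promoters. The windows of the genes had 58.4% to 74.4% GC, except that of Jund (47.6%), beside a median of 52.4% over all promoters. The part of GC content in the matches was not tested. A match describes the letters only.

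The livers were covered by between 22.7 M and 26.3 M fragments and the kidneys by between 17.1 M and 19.7 M (M, 1000000). Hepatocyte markers summed to between 57194 and 70883 FPKM in the livers, with all 6 markers detected, and kidney tubule markers to between 1377 and 4308 FPKM in the kidneys, with all 6 detected, so that each organ carried its own markers. One kidney, that of A115, stood apart from the rest. Its mean correlation with the other kidneys across genes was 0.858, against 0.932 to 0.964 for the other 7, and the mitochondrial genome took 30.9% of its fragments, against 8.63% to 16.5%. Its tubule marker sum of 1377 FPKM was the lowest of the 8 kidneys, the other sums starting at 2825 FPKM. Among the livers A94 had the lowest mean correlation with the rest, 0.941 against 0.977 to 0.982. The kidney differences between ADV and LD are therefore given with and without A115. The labels name a pair of sequencing companies, each with its own instrument, but do not assign the libraries to them, and a difference between instruments and one between conditions cannot be told apart.

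The 10 genes differed widely in level within each organ. In the LD livers Dusp1 (25.0 ± 9.65 FPKM, SD, n = 4), Jund (17.9 ± 1.19) and Junb (13.3 ± 5.03) were the most abundant, followed by Ier2 (9.95 ± 1.79), Jun (7.17 ± 2.68) and Egr1 (3.38 ± 1.85). Fos (1.19 ± 0.458), Atf3 (0.806 ± 0.200) and Nr4a1 (0.420 ± 0.159) were low there. Fosb amounted to between 2 and 7 fragments in each of the 8 livers and was too low for the test in that organ. In the LD kidneys Dusp1 was also first (27.4 ± 0.623 FPKM, SD, n = 4), ahead of Jund (19.4 ± 4.61) and Jun (12.9 ± 2.84), and Fosb was last (0.103 ± 0.0793).

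**Figure D1:**
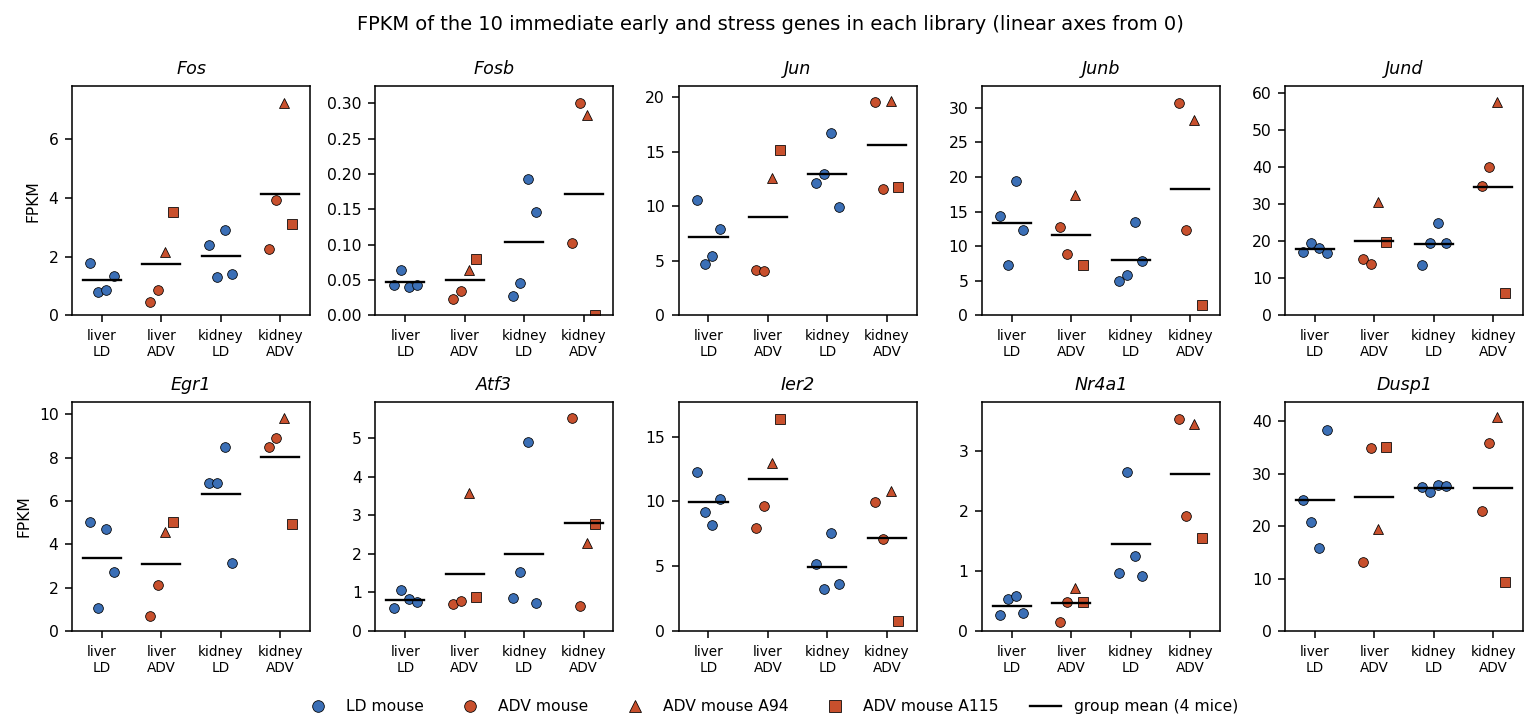
FPKM of each of the 10 genes (linear axes from 0) in the 4 libraries of each organ and condition. Points are mice, triangles are A94, squares are A115 and bars are group means (n = 4 mice). In the ADV kidneys the square of A115 lies far below the other 3 mice for Junb, Jund, Ier2 and Dusp1, and in the ADV livers the triangle of A94 lies above the other mice for Atf3 and Jund.

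Whether 85 weeks of ADV conditioning altered these genes was asked first in the liver. None of the 9 genes tested passed an adjusted p under 0.05 (limma on log2(FPKM + 0.1), Benjamini-Hochberg over the 12835 liver genes tested), where 1 gene of all, or 0.00779%, did. The count at an unadjusted p under 0.05 was 0 of 9, beside 11.8% of all liver genes. For 6 genes the log2 difference ADV minus LD was above 0 and for 3 below, with a median of 0.084 beside 0.10 for all genes. The ranges of the LD and the ADV mice overlapped for all 10 genes, while they did not overlap for 8.84% of the liver genes tested. A tested gene is one with a mean above 0.5 per 1000000 fragments over the libraries of the organ.

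In the Fos family, the level of Fos (chr12:85473901-85477269) was 1.78, 0.796, 0.865 and 1.34 FPKM in the livers of L63, L65, L86 and L104 and 0.470, 0.869, 2.14 and 3.50 FPKM in those of A75, A91, A94 and A115. The ADV mice thus held both the lowest and the highest value, a 7.44-fold range against 2.24-fold in LD, and the groups overlapped. The log2 difference was 0.23 (standard error 0.53, limma adjusted p = 0.863, and p = 0.743 in an exact permutation test), with a 95% interval from −0.96 to 1.43. Fosb (chr7:19302696-19310045) had between 0.0227 and 0.0800 FPKM in the livers, with the lowest and the highest value again in ADV mice.

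Of the Jun family, Jun (chr4:95049036-95052222), the main partner of FOS in AP-1, had 10.6, 4.69, 5.46 and 7.94 FPKM in the livers of L63, L65, L86 and L104 and 4.13, 4.06, 12.6 and 15.1 FPKM in A75, A91, A94 and A115. Here 2 ADV mice lay below and 2 above all LD mice, whereas for Fos A75 lay below, A91 within and 2 mice above the LD range. The log2 difference was 0.14 (standard error 0.46, adjusted p = 0.906 by limma). Junb (chr8:84976909-84978748), which often restrains JUN, ranged from 7.21 to 19.4 FPKM in LD and from 7.29 to 17.4 FPKM in ADV, with a log2 difference of −0.19 (standard error 0.33, adjusted p = 0.811 by limma). Jund (chr8:70697739-70700616), the family member with the most constant expression, had 17.2, 19.5, 18.2 and 16.8 FPKM in the LD livers of L63, L65, L86 and L104. These 4 values had a coefficient of variation of 6.64%, the lowest of the 10 genes in the livers. In the ADV livers of A75, A91, A94 and A115 Jund had 15.3, 13.9, 30.6 and 19.9 FPKM, with A75 and A91 below and A94 and A115 above the LD range, and the log2 difference was 0.084 (standard error 0.22, adjusted p = 0.879 by limma).

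The level of Egr1 (chr18:34861207-34864956) was 5.02, 1.07, 4.71 and 2.72 FPKM in the LD livers and 0.668, 2.12, 4.57 and 5.01 FPKM in the ADV livers, in the order of mice above. Both groups spanned several-fold, and the log2 difference was −0.25 (standard error 0.65, adjusted p = 0.879 by limma). Nr4a1 (chr15:101266846-101274795) lay between 0.265 and 0.585 FPKM in LD and between 0.156 and 0.721 FPKM in ADV, with a log2 difference of 0.040 (standard error 0.38). Ier2 (chr8:84661331-84662852) had between 8.15 and 12.3 FPKM in LD and between 7.91 and 16.4 FPKM in ADV, the highest value being that of A115, with a log2 difference of 0.20 (standard error 0.22, adjusted p = 0.698 by limma). With 1 mouse left out this difference ran from 0.020 without A115 to 0.37 without A75. The phosphatase Dusp1 (chr17:26505591-26508472) averaged 25.0 ± 9.65 FPKM in LD and 25.7 ± 11.1 FPKM in ADV (SD, n = 4 each), a log2 difference of −0.0018 with a 95% interval from −0.80 to 0.80.

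Atf3 (chr1:191170296-191183333), a stress-induced factor of the ATF/CREB family, had the largest liver difference of the list, and it rested on 1 mouse. Its level was 0.590, 1.07, 0.819 and 0.745 FPKM in the LD livers of L63, L65, L86 and L104 and 0.693, 0.778, 3.59 and 0.885 FPKM in the ADV livers of A75, A91, A94 and A115. With A94 the log2 difference was 0.50 (standard error 0.45, adjusted p = 0.626 by limma), and without A94 it was −0.013 (standard error 0.20, adjusted p = 0.983). The difference of Jund, which was also highest in this mouse, went from 0.084 to −0.14 without it, and that of Nr4a1, likewise highest there, from 0.040 to −0.18. The liver of A94 also had the highest sum of 10 leukocyte markers, 302 FPKM against 72.9 to 156 in the other 7 livers, and of 5 smooth muscle and fibroblast markers, 101 FPKM against 5.17 to 31.0. Of the leukocyte markers Lyz2 averaged 85.7 FPKM over the livers and the others between 0.435 and 9.61 FPKM, so that Lyz2 weighs most in this sum. All markers of both lists were detected in every group of livers. Their part in the levels of Atf3, Jund and Nr4a1 was not tested, and in bulk tissue more cells of a type and more RNA per cell cannot be told apart.

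In the kidney, none of the 10 genes passed an adjusted p under 0.05 with all 8 mice (limma, Benjamini-Hochberg over 14452 genes), and neither did any other gene, so that the background was 0%. At an unadjusted p under 0.05, 1 of the 10, Fos, passed, beside 3.10% of all kidney genes. The difference was above 0 for 9 of the 10, with a median of 0.43 on the log2 scale beside −0.024 for all genes, and the ranges of the 2 groups overlapped for all 10, where 2.80% of the genes tested did not overlap.

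Fos had 2.41, 1.31, 2.91 and 1.42 FPKM in the kidneys of L63, L65, L86 and L104 and 2.26, 3.91, 7.23 and 3.10 FPKM in those of A75, A91, A94 and A115. In all, 3 of the 4 ADV kidneys lay above all LD kidneys, and A75 lay within the LD range. The mean was 2.01 ± 0.774 FPKM in LD and 4.12 ± 2.18 FPKM in ADV (SD, n = 4 each), a log2 difference of 0.94 (standard error 0.40, limma unadjusted p = 0.0470 and adjusted p = 1.0, and p = 0.0857 in an exact permutation test). Fosb had 2, 3, 12.5 and 10 fragments in the LD kidneys and 7, 20, 21 and 0 in the ADV kidneys, in the order of mice above. Fragments were counted in steps of 0.5 in these tables. For A115 the count of 0 allows up to 3 fragments, or 0.0415 FPKM, and the group difference of Fosb was 0.30 (standard error 0.51). With 1 mouse left out, where Fosb was still tested, the difference ran from 0.11 without L63 to 0.71 without A115.

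The 3 Jun genes did not share 1 pattern in the kidney. Jun had 12.1, 12.9, 16.7 and 9.90 FPKM in L63, L65, L86 and L104 and 19.5, 11.6, 19.6 and 11.8 FPKM in A75, A91, A94 and A115, so that 2 ADV mice lay above and 2 within the LD range. Junb had 4.96, 5.83, 13.5 and 7.91 FPKM in the LD kidneys and 30.7, 12.4, 28.3 and 1.51 FPKM in the ADV kidneys. Its ADV values spanned 20.4-fold, with A115 below every LD kidney. Jund had 13.6, 19.4, 24.9 and 19.5 FPKM in LD and 34.8, 40.1, 57.4 and 6.08 FPKM in ADV. Here the other 3 ADV kidneys were above all LD kidneys, and A115 was again below all of them. With all mice the log2 differences were 0.25 for Jun (standard error 0.25), 0.61 for Junb (standard error 0.90) and 0.48 for Jund (standard error 0.64), each with an adjusted p of 1.0 by limma. With 1 mouse left out, Junb ran from 0.13 without A75 (0.17 without A94) to 1.55 without A115, and Jund from 0.11 without A94 to 1.18 without A115. Jun ran from 0.13 without L104, A75 or A94 to 0.38 without L86 or A91. Fos, described above, ran from 0.63 without A94 (limma unadjusted p = 0.114) to 1.18 without A75.

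Ier2 had 5.19, 3.23, 7.58 and 3.66 FPKM in the LD kidneys and 9.93, 7.13, 10.8 and 0.755 FPKM in the ADV kidneys. Of the ADV mice, A75 and A94 lay above all LD kidneys, A91 lay within the LD range and A115 below it. Dusp1 was nearly constant in the LD kidneys, between 26.5 and 27.9 FPKM, a coefficient of variation of 2.27%. In the ADV kidneys of A75, A91, A94 and A115 it had 22.8, 35.9, 40.9 and 9.38 FPKM, on both sides of the LD values. Nr4a1 had 0.970, 2.65, 1.25 and 0.915 FPKM in LD and 3.55, 1.92, 3.46 and 1.56 FPKM in ADV, all 4 ADV mice lying above the LD mean, with a log2 difference of 0.86 (standard error 0.41, limma adjusted p = 1.0, and p = 0.114 in an exact permutation test). Egr1 (6.33 ± 2.27 FPKM in LD and 8.04 ± 2.15 FPKM in ADV, SD, n = 4 each) and Atf3 (2.01 ± 1.97 and 2.81 ± 2.03 FPKM) differed by 0.38 (standard error 0.35) and 0.54 (standard error 0.74) on the log2 scale. With 1 mouse left out, Egr1 ran from 0.081 without L104 to 0.60 without A115, and Atf3 from 0.12 without A75 to 1.09 without L86. Atf3 was highest in A75 (5.53 FPKM) and L86 (4.91 FPKM) and lowest in A91 (0.659 FPKM), so that its spread crossed the groups.

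**Figure D2:**
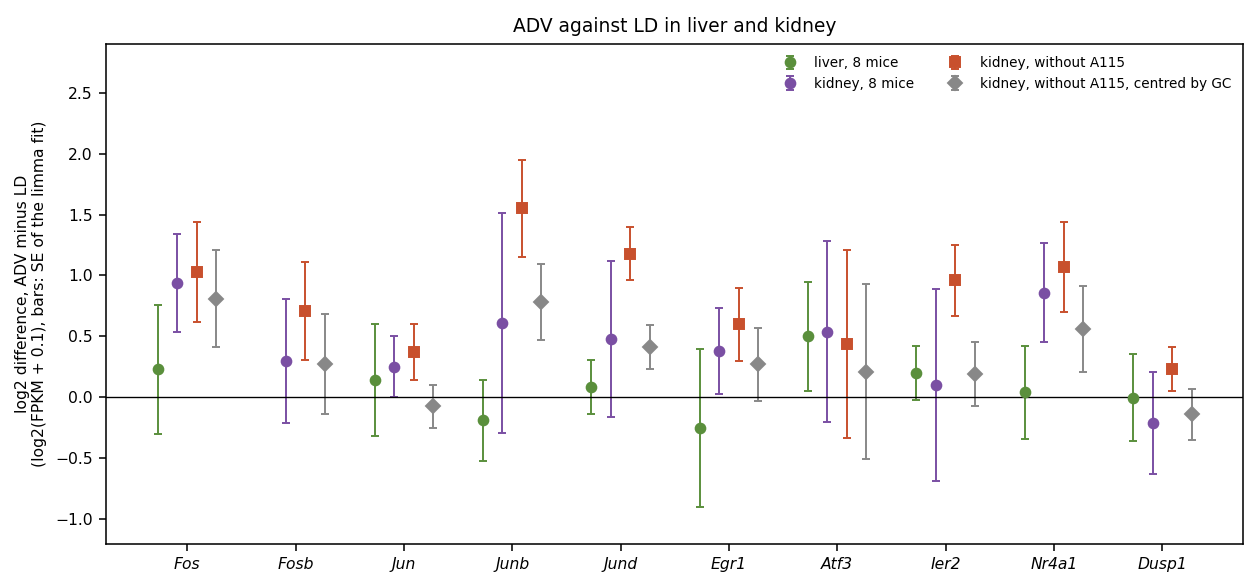
Log2 difference ADV minus LD of each gene on the log2(FPKM + 0.1) scale, with the standard error of the limma fit, in the liver, in the kidney with all 8 mice, in the kidney without A115, and in the kidney without A115 after centring by transcript GC content (n = 4 LD against 4 or 3 ADV mice). Without A115 all 10 kidney values lie above 0, and after the centring they lie between −0.14 and 0.81. Fosb was not tested in the liver.

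Without A115, Jund and Junb were called higher in the ADV kidneys, as were 16.1% of all kidney genes, and both calls ended after centring by GC content (adjusted p = 0.254 and 0.236 by limma). The 3 remaining ADV mice had 44.1 ± 11.8 FPKM of Jund (SD, n = 3) against 19.4 ± 4.61 in LD (n = 4), a log2 difference of 1.18 (standard error 0.22, adjusted p = 0.0150 by limma), and 0.0286, the smallest p that an exact permutation test of 3 mice against 4 allows. For Junb the means were 23.8 ± 9.95 and 8.05 ± 3.84 FPKM, a log2 difference of 1.55 (standard error 0.40, limma adjusted p = 0.0329, and p = 0.0857 in an exact permutation test). Ier2 missed the threshold narrowly, with a log2 difference of 0.96 (standard error 0.29, adjusted p = 0.0503 by limma). The other 7 genes were not called either. Nr4a1 differed by 1.07 (standard error 0.37, limma adjusted p = 0.0773) and Fos by 1.03 (standard error 0.41, limma adjusted p = 0.106). The log2 difference was 0.71 for Fosb, 0.60 for Egr1, 0.44 for Atf3, 0.37 for Jun and 0.23 for Dusp1, with limma adjusted p-values between 0.178 and 0.702. These were 2 of 10 genes called, a share near that of all genes. Jund was the 1 gene of the 10 for which every ADV mouse lay above every LD mouse, which held for 24.8% of all genes. All 10 differences were above 0 with a median of 0.84, beside 0.20 for all genes. In 5 equal groups of genes by transcript GC content, the median was 0.64 in the GC-richest group, which held Junb, Jund, Ier2 and Nr4a1. It was 0.37 in the next group, which held Fosb, Jun, Egr1 and Dusp1, and 0.16 in the group of Fos and Atf3. Of the 2724 genes called in all without A115, 2336 were higher, and after scaling the libraries by their median ratio 1166 of 2309 were higher, or 8.06% of the genes tested, with Jund and Junb still called (log2 differences of 0.99 and 1.36).

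The differences between the kidney libraries followed the GC content of the transcripts and also their length. Transcript GC was available for 96.2% of the kidney genes tested, which were divided into 5 equal groups by GC content. In the kidney of A115 the median difference from the LD mean was 0.39 in the GC-poorest group and −1.83 in the GC-richest on the log2 scale. The other 3 ADV kidneys went the opposite way, from −0.23 to 0.75 in A75, from −0.16 to 0.44 in A91 and from −0.078 to 0.70 in A94, while the 4 LD kidneys stayed between −0.16 and 0.14 in both of these groups. Of the genes called higher without A115, 1428 fell in the GC-richest group, which is 51.3% of its genes, and 16 in the GC-poorest, which is 0.574%. The genes were also divided into 5 groups by exon length. The median difference of A115 from the other ADV kidneys was −1.28 in the shortest group and −0.15 in the longest. For A94 against the other ADV kidneys it was 0.59 and 0.10. The part of length apart from GC content was not tested.

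Jund, Junb and Ier2 are GC-rich, with 67.1%, 62.6% and 60.9% GC, at the 99.9th, 98.8th and 97.1st percentile of the genes tested. In A115 they differed from the LD mean by −1.62, −2.24 and −2.47 on the log2 scale. Fos (51.9% GC) and Atf3 (52.2%), with the lowest GC content of the 10, were above the LD mean in A115, by 0.67 and 0.85. Between these extremes Jun (55.5% GC) differed in A115 by −0.11, Egr1 (53.6%) by −0.27, Fosb (56.0%) by −0.94 and Dusp1 (54.9%) by −1.54, whereas Nr4a1 (57.0%) differed by 0.23. After the median difference was removed from each library in 20 bins of GC content, without A115, 0 genes of 13929 were called, or 0%, with 2621 at an unadjusted p under 0.05. In that fit the log2 difference was 0.41 for Jund (standard error 0.18, adjusted p = 0.254 by limma), 0.78 for Junb (standard error 0.31, adjusted p = 0.236), 0.19 for Ier2 (standard error 0.26, adjusted p = 0.699) and 0.81 for Fos (standard error 0.40, adjusted p = 0.311). This centring removes any difference that GC-rich genes share, whatever its origin, and its source was not tested.

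**Figure D3:**
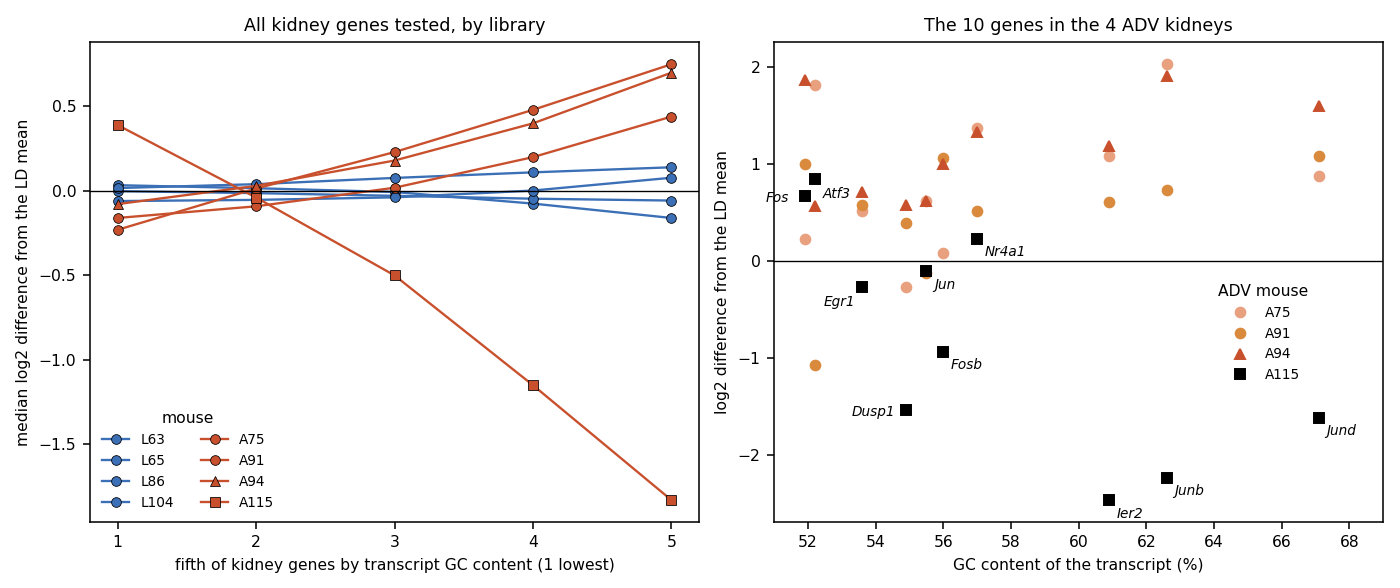
Left, the median log2 difference of each kidney library from the mean of the 4 LD kidneys in 5 equal groups of the genes tested by transcript GC content. Right, the same difference for each of the 10 genes in the 4 ADV kidneys against the GC content of its transcript in percent, the genes being named beside the squares of A115. A115 falls to −1.83 in the GC-richest group while A75, A91 and A94 rise to 0.75, 0.44 and 0.70, and Jund, Junb and Ier2 lie in the GC-rich range.

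Other measures also moved with these kidneys. The mitochondrial share was 9.81%, 12.0% and 8.63% in A75, A91 and A94, below the 14.6% to 16.5% of the LD kidneys. The tubule marker sum was 4308, 3807 and 3489 FPKM in these mice, above the 2825 to 3263 FPKM of the LD kidneys. The 3 mice thus lay outside the LD range in both, and A115 lay beyond it on the opposite side. The leukocyte marker sum was 157 and 355 FPKM in the kidneys of A75 and A94, where Junb was highest, and 52.7 FPKM in A91 and 71.1 FPKM in A115. In the LD kidneys it was 150 FPKM in L86, the LD mouse with the highest Fos, Junb, Jund, Ier2 and Atf3, and 44.8 to 65.6 FPKM in the other 3. The 5 smooth muscle and fibroblast markers summed to between 27.0 and 53.5 FPKM in LD and between 47.8 and 154 FPKM in ADV. The 3 blood markers summed to between 136 and 323 FPKM in LD and to 594, 318, 756 and 108 FPKM in A75, A91, A94 and A115, so that A115 had the lowest sum of the 8 kidneys, as it had the lowest Junb, Jund and Ier2. Of the leukocyte markers Lyz2 averaged 91.7 FPKM over the kidneys and the others between 1.16 and 6.20 FPKM, so that Lyz2 weighs most in this sum. All markers of the 3 lists were detected in both groups, and their part in these differences was not tested.

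Whether ADV acted differently in the 2 organs was tested as the interaction of organ and condition over all 16 libraries. None of the 9 genes tested passed an adjusted p under 0.05, and of the 14379 genes tested 0, or 0%, did by limma, with 536 at an unadjusted p under 0.05. The largest differences between the organs, liver minus kidney, were −0.82 for Nr4a1 (standard error 0.58), −0.80 for Junb (standard error 1.02) and −0.71 for Fos (standard error 0.73), each with an adjusted p of 1.0. Without A115, 415 genes of the table passed and 0 of the 9 did. The largest values were then −1.55 for Junb (limma adjusted p = 0.143), −1.24 for Fos (0.309), −1.19 for Egr1 (0.434), −1.12 for Jund (0.102) and −1.09 for Nr4a1 (0.321). Without A75 the same genes had smaller differences, −0.40 for Junb, −0.50 for Fos, −0.017 for Egr1, −0.16 for Jund and −0.31 for Nr4a1.

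Between the organs themselves the genes fell into different orders. Nr4a1 was lower in the liver than in the kidney in 8 of 8 mice, with a log2 difference liver minus kidney of −1.91 (standard error 0.29, adjusted p = 2.37e-05 by limma), and it was the gene whose ranges separated the organs, the LD kidneys starting at 0.915 FPKM and the ADV livers ending at 0.721 FPKM. Ier2 was the converse, higher in the liver in all mice except A75, with a log2 difference of 1.11 (standard error 0.43, adjusted p = 0.0303 by limma). By limma, Fos (−1.05, standard error 0.36, adjusted p = 0.0161), Jun (−0.94, standard error 0.29, adjusted p = 0.00858) and Egr1 (−1.33, standard error 0.41, adjusted p = 0.00856) were lower in the liver, each in 7 of 8 mice. Junb, Jund, Atf3 and Dusp1 had log2 differences of 0.34, −0.28, −0.86 and −0.10 and were not called. Thus 5 of 9 genes were called, beside 74.5% of the 14379 genes tested.

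These organ differences depended on how the libraries were made comparable, since the median of all genes lay at −0.74 on the log2 scale. After scaling by the median ratio, which brought that median to −0.0076, 65.2% of all genes and 4 of the 9 were called. Nr4a1 (−1.23, adjusted p = 5.75e-04 by limma) and Ier2 (1.88, adjusted p = 2.19e-04) kept their direction and their call under this scaling and under quantile normalization. By limma on these values Fos (−0.33), Jun (−0.17) and Egr1 (−0.57) were no longer called, and Junb (1.11, adjusted p = 0.0319) and Dusp1 (0.67, adjusted p = 0.0333) were called higher in the liver, Dusp1 with a change of sign. With the mouse as a replicate block Ier2 lost its call (limma adjusted p = 0.0519). Without A115 the log2 difference of Ier2 was 0.60 (limma adjusted p = 0.00958), and its adjusted p was 0.0702, 0.0771 and 0.0789 by limma without L63, L65 or L104. Fos lost its call without L86 (limma adjusted p = 0.0646) or A91 (limma adjusted p = 0.0538), while Jund was called lower in the liver without A115 (−0.64, limma adjusted p = 0.00499) and Atf3 without A94 (−1.12, limma adjusted p = 0.0422). In order of group means, the ADV kidney was first for Fos, Fosb, Jun, Junb, Jund, Egr1, Atf3 and Nr4a1, the ADV liver for Ier2 and the LD kidney for Dusp1, but neighbouring groups overlapped for all genes except LD kidney and ADV liver for Nr4a1.

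**Figure D4:**
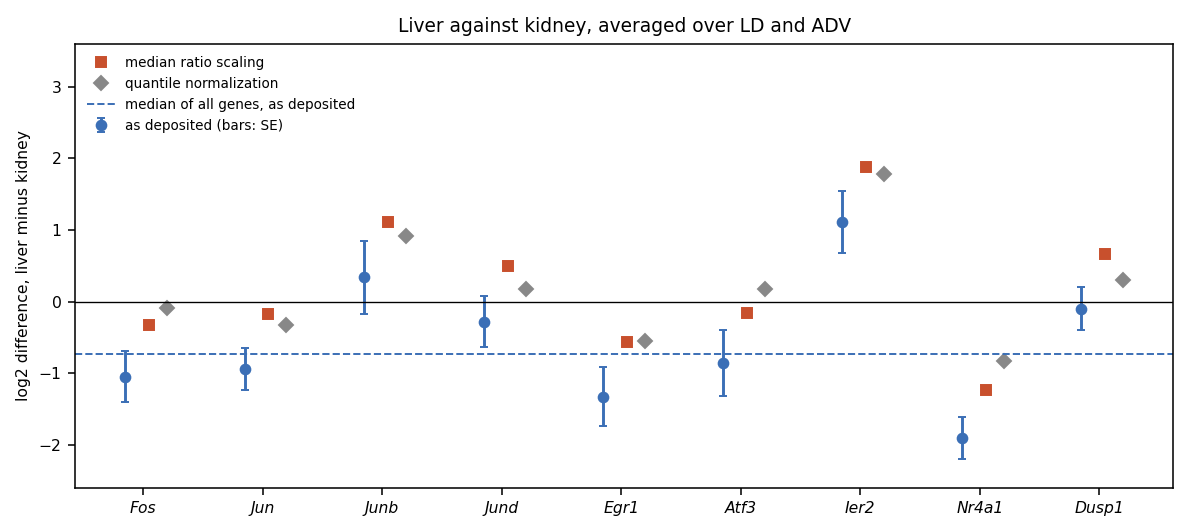
Log2 difference liver minus kidney of 9 genes, averaged over LD and ADV (16 libraries), on the deposited values with the standard error of the limma fit and after 2 other scalings, with the median of all genes at −0.74 as a dashed line. Nr4a1 stays below 0 and Ier2 above 0 under all 3, while Jund and Dusp1 change sign under both other scalings and Atf3 under quantile normalization.

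Mice of 1 condition differed from each other in these genes more than in most genes of the liver. The standard deviation within conditions on the log2 scale was 1.13 for Egr1, 0.914 for Fos, 0.800 for Jun and 0.768 for Atf3, beside a median of 0.244 for all liver genes, at the 98.4th, 96.7th, 95.1st and 94.5th percentile. Dusp1 (0.616), Nr4a1 (0.598) and Junb (0.571) lay at the 90.2nd, 89.4th and 88.4th, and Ier2 (0.371) and Jund (0.364) at the 74.3rd and 73.7th. In the kidney the values with all mice were largest for Junb (1.47), Ier2 (1.29), Atf3 (1.19) and Jund (1.05), beside a median of 0.443 for all kidney genes, while Jun (0.373) lay below that median and Egr1 (0.538), Fos (0.618), Nr4a1 (0.620), Dusp1 (0.676) and Fosb (0.780) lay between the 58.8th and the 75.7th percentile. Without A115 the first 4 were 0.666, 0.464, 1.29 and 0.362, beside a median of 0.211, at the 93.4th, 86.7th, 99.1st and 79.0th percentile. Fos, Nr4a1, Fosb and Egr1 then lay at the 93.4th, 91.8th, 90.9th and 87.7th percentile of the kidney genes. Jun and Dusp1 lay at the 79.2nd and 67.7th. Without A115 the kidney spread of every gene of the list was thus also above the median of all genes. Low genes vary more by counting alone, and these percentiles were not corrected for level.

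Fos, Jun and Ier2 were high and low in the same livers, and Egr1 largely so. Over the 8 livers, as deviations from the condition mean, Fos was correlated most with Ier2 among all 12834 other genes (r = 0.98, Spearman's rho = 0.90, exact permutation test within conditions p = 0.00521 and 0.0208). Next came Zfp36 (r = 0.97, rho = 0.95, exact p = 0.00174 and 0.00347), which encodes an RNA-binding protein that destabilizes short-lived mRNAs, and Eral1 (r = 0.97), a mitochondrial ribosome assembly factor. Jun was sixth (r = 0.96, rho = 0.98, exact p = 0.00521 and 0.0208) and Egr1 224th (r = 0.83, rho = 0.95, exact p = 0.0330 and 0.0139). Leaving out A75 and A115, the 2 livers farthest from the median of Fos, left r = 0.94 with Ier2, 0.97 with Zfp36, 0.99 with Jun and 0.64 with Egr1. Only 576 permutations within conditions exist, and adjusted over the 12834 genes none of the p-values fell under 0.05 (smallest adjusted p = 1.0). Unadjusted, 280 genes, or 2.18%, had an exact permutation p under 0.05 with Fos. In the windows printed above Fos and Jun each held a GC box, and Fos held 2 half-sites where Jun held none.

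The values with Fos in the liver were lower for Junb (r = −0.069), Atf3 (r = 0.30) and Nr4a1 (r = 0.38). Without A115, r with Fos was 0.30 for Junb and 0.56 for Atf3. Jund and Atf3 had r = 0.93 (rho = 0.86, exact p = 0.0104 and 0.0139, adjusted p = 0.394), and r = 0.75 without A94. Atf3 ranked 521st for Jund, and 12.0% of all genes had an unadjusted p under 0.05 with it. Over the 36 pairs of 9 genes the median r was 0.36, from −0.50 for Junb with Dusp1 to 0.98 for Fos with Ier2. The genes most like Jun in the liver were Pdcd11, Pwp2 and Pphln1 (r = 0.98, 0.97 and 0.97), the first 2 of which act in ribosome biogenesis. Adjusted over the 12834 other genes, 0 had an exact permutation p under 0.05 with Jun, and unadjusted 2.12% had one.

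In the kidney the pairs that were closest in the liver had the following values, and the difference between the organs was not tested. Fos had r = 0.36 with Jun, 0.40 with Ier2 and 0.51 with Egr1 over the 8 kidneys, with exact permutation p-values of 0.448, 0.470 and 0.222, and 0.32, 0.48 and 0.50 without A115. Over all 45 pairs of the 10 genes the median r was 0.52 in the kidney, and 0.42 without A115. The genes closest to Fos were Cmc2, Uvrag and Zdhhc17 (r = 0.98, 0.98 and 0.97), and among those closest to Jun were Nol4l and Mmp2, a matrix protease (r = 0.99 and 0.98). Adjusted over the 14451 other genes, 0 had an exact permutation p under 0.05 with Fos or with Jun. Unadjusted, 1.55% had one with Fos and 9.68% with Jun. Junb had r = 0.96 with Ier2 and 0.94 with Jund, and Jund had r = 0.95 with Dusp1, and without A115 these values were 0.84, 0.77 and 0.78. Such values were common in the kidney, since these partners ranked 1289th, 2408th and 2401st among 14451 genes, with adjusted exact permutation p-values of 0.0905, 0.101 and 0.185. An unadjusted p under 0.05 was reached by 32.9% of all genes with Junb and by 21.5% with Jund. The points share the library that stands apart and the GC trend shown above. Over both organs, as deviations from the 4 group means of 16 libraries, Zcwpw1, Zfp36 and Jun were most like Fos (r = 0.83, 0.81 and 0.80).

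**Figure D5:**
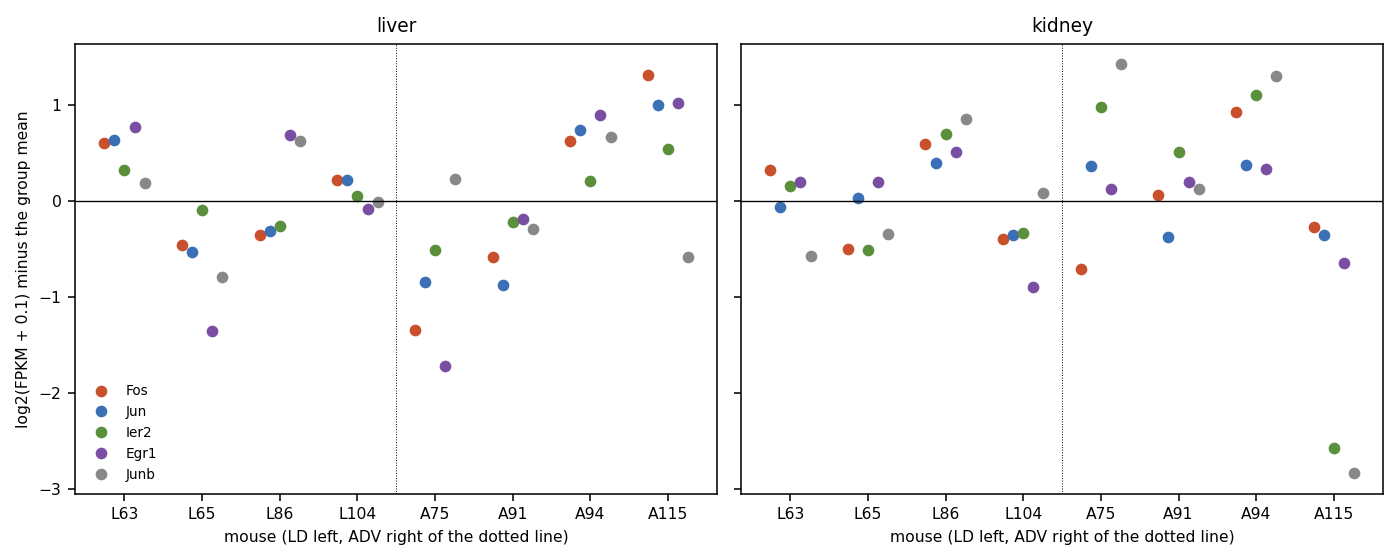
Deviation of log2(FPKM + 0.1) from the group mean for Fos, Jun, Ier2, Egr1 and Junb in each of the 8 mice, in the liver (left) and the kidney (right). In the liver Fos, Jun and Ier2 are above 0 in L63, L104, A94 and A115 and below 0 in the other 4 mice, while in the kidney Ier2 and Junb of A115 lie farthest below 0.

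Whether a mouse with a high level in the liver also had a high level in the kidney was asked for each gene. Over the 8 mice the correlation of liver with kidney level was 0.38 for Fos (Spearman's rho = 0.57, exact permutation test p = 0.362 and 0.151) and 0.61 for Junb (rho = 0.55, exact p = 0.103 and 0.171). For Ier2 it was −0.61 (rho = −0.33, exact p = 0.102 and 0.428), and it came to −0.0037 without A115. The other 6 lay between −0.23 for Dusp1 and 0.15 for Jund and Atf3. None of the 9 had an adjusted p under 0.05 and neither did any of the 12319 genes tested in both organs, of which 1045, or 8.48%, had an unadjusted p under 0.05. The median r was 0.11 over the 9 genes and 0.14 over all genes. After the 2 livers most distant from the median were left out, Fos had r = 0.46, Junb 0.17 and Ier2 −0.49. Within conditions, as deviations from the condition mean, r was 0.38 for Fos, 0.69 for Junb and −0.66 for Ier2, with unadjusted exact permutation p-values of 0.491, 0.0417 and 0.201.

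Of 30 other immediate early genes, 25 were tested in the liver and 30 in the kidney, and 0 were called in either organ. The smallest p in the liver were those of Cebpd, a C/EBP factor (log2 difference 0.45, adjusted p = 0.372 by limma), and Sgk1, a kinase induced by steroid hormones (0.43, adjusted p = 0.391), and in the kidney those of Egr3 (0.96) and Cebpd (1.28), both with an adjusted p of 1.0. Without A115, 5 of 29 were called in the kidney, all higher, namely Gadd45g, Csrnp1, Ier5l, Per1 and Btg2. The median over the 29 tested was 0.42 beside 0.20 for all genes.

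The list of 15 AP-1 partners gave 0 called of 13 in the liver and 0 of 15 in the kidney. In the liver Nfe2l1 differed by −0.27 (limma adjusted p = 0.385). In the kidney Batf3 (1.59) and Batf (1.16) had the smallest p of the list, both with an adjusted p of 1.0, and without A115, 3 of 15 were called higher, Nfe2l1, Batf3 and Mafk.

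Among 23 upstream factors and kinases, 0 were called in either organ. The ribosomal S6 kinases Rps6ka1 (0.64, adjusted p = 0.385 by limma) and Rps6ka3 (0.42, adjusted p = 0.385) had the smallest p in the liver, and Elk3 (0.47), a partner of SRF, and Map3k1 (0.36) in the kidney. Elk3 was higher in every ADV kidney than in every LD kidney, from 4.26 to 6.37 against 3.39 to 4.23 FPKM (limma adjusted p = 1.0, and p = 0.0286 in an exact permutation test), where 2.80% of kidney genes did not overlap. Rps6ka1 was higher in every ADV liver than in every LD liver, from 2.47 to 5.90 against 1.93 to 2.21 FPKM (exact permutation test p = 0.0286), where 8.84% of liver genes did not overlap. Without A115, Map2k2, Srf, Mapk3 and Elk1 were called higher in the kidney. Of 10 further MAP kinase phosphatases 7 were tested in the liver and 10 in the kidney with 0 called, led by Dusp10 (0.31) and Dusp6 (0.25) in the liver and Dusp6 (−0.22) and Dusp8 (0.61) in the kidney, and without A115 Dusp14 and Dusp9 were called higher.

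The integrated stress response, which shares Atf3 as a target, gave 0 called of 11 in the liver and 0 of 10 in the kidney. Atf5 was the nearest, with 42.4 ± 6.52 FPKM in the ADV livers against 26.9 ± 6.82 in LD (SD, n = 4 each, log2 difference 0.67, adjusted p = 0.296 by limma), and Sesn2 differed by −0.58 (adjusted p = 0.390). In the kidney Ddit3 (−0.56) and Nupr1 (0.45) had the smallest p, and without A115, 1 gene, Atf5, was called higher. Of the glucocorticoid-responsive genes 0 were called, with Zbtb16 (−0.63, limma adjusted p = 0.385) and Sgk1 first in the liver and Cdkn1a (0.59) and Zbtb16 (0.24) in the kidney, and without A115, Per1 was called higher. Of 6 co-repressors and binding partners 0 were called, with Rxra (−0.17) and Rxrb (−0.20) first in the liver and Ep300 (−0.14) and Crebbp (−0.26) in the kidney, and without A115, Rxrb, Rxra and Nab2 were called higher. All calls without A115 stand beside the 16.1% of kidney genes called higher in that fit and the trend with GC content.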

How the data were processed

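Poly(A)-selected, stranded, paired-end RNA-seq of liver and kidney was made by the authors, who per the labels and the study's methods mapped trimmed reads to mm10 with STAR 2.5.4b and counted exonic reads of the UCSC canonical genes with HOMER. The deposited values are FPKM, which the authors computed from those counts for each library, 1 table per organ. Multiplied by gene length and library total, 100% of the 263912 values per organ came out as multiples of 0.5 fragment (tolerance 0.01). The authors tested counts with DESeq2. Here limma 3.58.1 in R 4.3.3 was run on log2(FPKM + 0.1), since FPKM are not counts, over genes with a mean above 0.5 per 1000000 fragments, with a trended variance prior and Benjamini-Hochberg adjustment. Single genes were also tested by two-sided exact permutation over the 70 assignments of 4 of 8 mice (35 without A115). Intervals of log2 differences are 95% intervals of the limma fit and rest on the spread between mice, whereas the floor for a count of 0 covers counting error only. The scripts were tested on simulated data.

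The 10 genes and the gene and marker lists were chosen with earlier results of these data known. From each list, and for either organ, the 2 genes ranked first by p are named, and as neighbours the 3 genes with the highest r with Fos and with Jun. Of the genes these rules name, 2 are not reported here. Names of genes called without A115, and of the other gene pairs described, were added after their values were seen. Leaving out A115 together with another scaling, GC centring in 20 bins and rescaling without mitochondrial fragments were added after seeing the data. GC content came from GENCODE transcripts closest in length. Liver and kidney with the same number came from the same mouse. The correlation of their deviations from the group means across genes was between −0.0242 (A75) and 0.553 (A94).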

Additional observations from a re-analysis of the deposited data

Results flagged for a closer look

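In 3 of 40 groups of 4 libraries, 1 mouse lay farther from its group than Dixon's 95% limit allows, which chance gives in about 1 of 20 groups. Atf3 was 3.59 FPKM in the ADV liver of A94, against 0.693 to 0.885 FPKM in the other 3 ADV livers. Ier2 was 0.755 FPKM in the ADV kidney of A115, against 7.13 to 10.8 FPKM in the other 3. Fosb was 0.0645 FPKM in the LD liver of L65, against 0.0403 to 0.0433 FPKM in the other 3, a difference of 6 against 4 fragments.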

How the results depend on the processing

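In the liver 0 of the genes of the list that were tested were called under any of the 13 other settings or with any mouse left out. Fosb was tested there only without the filter on low values. The number of liver genes called was 6 without a filter on low values, 0 after quantile normalization and 3 after centring by GC content, and 0 to 9 with 1 mouse left out, the 9 without A91. In the kidney it was 1 with both organs in 1 fit, 2309 without A115 and with median ratio scaling, and 0 to 2724 with 1 mouse left out, the 2724 without A115. The members called in the kidney were 2 without A115 and with median ratio scaling, and 0 to 2 with 1 mouse left out. For the difference of the ADV effect between organs, 3 genes were called without the filter, 1 after median ratio scaling and 1 after quantile normalization, and 0 to 415 with 1 mouse left out. Of the genes of the list that were tested, 0 were called throughout. Between organs 2 of the 9 genes tested were called after quantile normalization and 4 to 6 with 1 mouse left out, among 10079 to 12326 genes. limma-voom on the recovered fragments called 1 gene in the liver, 0 in the kidney and 0 for the difference. The cause of these changes was not tested.

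Signs that changed in the liver, on the log2 scale, were those of Fos (−0.0068), Jun (−0.14), Jund (−0.17), Atf3 (−0.040), Nr4a1 (−0.21) and Dusp1 (0.062) without A94 and with median ratio scaling. They also changed for Jund (−0.018) and Nr4a1 (−0.048) with median ratio scaling, Nr4a1 after quantile normalization (−0.30) and GC centring (−0.015), and Dusp1 with a pseudocount of 1 (3.5e-04). With 1 mouse left out the liver difference ran from −0.20 to 0.68 for Fos, −0.19 to 0.43 for Jun, −0.46 to 0.014 for Junb, −0.14 to 0.23 for Jund, −0.70 to 0.32 for Egr1, −0.013 to 0.73 for Atf3, −0.18 to 0.38 for Nr4a1 and −0.19 to 0.28 for Dusp1. In the kidney Jun was −0.075 without A115 and with GC centring and Dusp1 0.037 without A115 and with median ratio scaling, and with 1 mouse left out Dusp1 ran from −0.47 to 0.23 and Ier2 from −0.26 to 0.96. The difference of the effects was −0.018 for Ier2 with a pseudocount of 1 and −0.021 after quantile normalization, and with 1 mouse left out it ran from −0.94 to 0.59 for Ier2, −0.57 to 0.61 for Atf3, −0.42 to 0.56 for Dusp1 and −0.56 to 0.30 for Jun.

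Liver minus kidney changed sign for Jund (0.49 and 0.17) and Dusp1 (0.67 and 0.30) after median ratio scaling and quantile normalization and for Atf3 (0.18) after the latter, and with 1 mouse left out it ran from −0.42 to 0.073 for Dusp1 and −0.035 to 0.54 for Junb. The correlation of liver with kidney was 0.14 for Jun and 0.017 for Egr1 after median ratio scaling, and −0.69 for Jund, 0.16 for Egr1 and −0.10 for Atf3 with the 2 most distant livers left out. With 1 mouse left out it ran from −0.41 to 0.35 for Dusp1, −0.27 to 0.060 for Egr1, −0.48 to 0.13 for Jun, −0.77 to 0.38 for Jund and −0.19 to 0.81 for Nr4a1.

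With the mouse as a replicate block, which pairs liver and kidney of a mouse, 4 of the 9 genes tested and 10882 of all genes were called between organs. For the difference of the effects 0 genes were called and in the kidney 1 gene, and apart from Ier2 the block changed no call of the genes of the list.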
